A study of Mus musculus with 12 samples.

Results

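The 10 lineage regulator genes examined in mouse embryonic stem cells (ESCs) were Gata4, Gata6, Sox17, Foxa2, Eomes, Pax6, Sox1, Cdx2, Neurog1 and Nkx2-2. They are 10 of the 21938 protein-coding genes of the annotation, and were chosen by name as developmental regulators that ESCs keep silent but poised. Silence and histone marks were not measured by this assay. Accessibility was read from ATAC-seq, in which a transposase cuts open DNA, as lists of peaks called in each library. A peak was assigned to a gene when its summit, the base with the most fragments, lay inside the gene or within 10 kb of either end, which gave 189 peaks of 438517 in all.

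The 12 libraries came from 1 wild-type line (WT, WT26) and 1 Suv39h dn line (DN57). The mutant line lacks both Suv39h1 and Suv39h2, the enzymes that trimethylate histone H3 at lysine 9 in heterochromatin. Each line was profiled as asynchronous cells, as mitotic cells collected by shake-off after an arrest of 6 h in demecolcine at 0.1 μg/ml, and as flow-sorted mitotic chromosomes released from such arrested cells, with 2 libraries in each of the 6 groups. All cells were grown with serum and leukaemia inhibitory factor, asynchronous and mitotic libraries used 50000 cells and chromosome libraries used 2000000 chromosomes. Per the paper's methods, nuclei were first isolated from the asynchronous cells with detergents, while mitotic cells went into the transposase mixture as cells. Chromosomes were released in polyamine buffer, stained overnight with 2 DNA dyes and sorted. Preparation and handling therefore cannot be told apart in any comparison between preparations. Since each genotype is 1 line, line and genotype cannot be told apart, and no source used here says that the duplicates were separate cultures, so that p-values measure the spread between these libraries, which may be technical.

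Poised developmental genes in ESCs typically have CpG-rich promoters that carry both an activating mark (H3K4me3) and the Polycomb mark (H3K27me3), and are switched on when a cell commits to a lineage. During mitosis most transcription stops and many factors leave the chromosomes, while part of the accessible DNA stays open. Gata4, Gata6, Sox17 and Foxa2 direct endoderm formation, Eomes acts in mesendoderm and trophoblast, Cdx2 specifies trophectoderm and later the intestine, and Pax6, Sox1, Neurog1 and Nkx2-2 act in the neural lineages.

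The lists differed widely in length. They held 22344 to 80602 peaks in asynchronous cells, 1746 to 14328 in mitotic cells and 44885 to 67027 on chromosomes. The lowest background, which follows relative depth, was 0.149 to 0.306 fragments per base in asynchronous cells, 0.204 to 0.239 in mitotic cells and 0.187 to 0.328 on chromosomes. The mitotic backgrounds thus lay within the ranges of the other preparations, and the cause of the short mitotic lists was not tested. The library labelled Suv39h dn mitotic 1 stood apart with 1746 peaks, and reached 7.5% of all protein-coding genes where the other mitotic libraries reached 27.8 to 47.5%. Of 10 ESC marker genes, 8 to 10 had a peak in asynchronous libraries, 7 to 10 in chromosome libraries and 1 to 8 in mitotic libraries. Of 8 fibroblast markers, 3 to 6, 3 to 5 and 0 to 3 had one. These peak lists do not measure expression, and the part of other cells in the results was not tested.

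The peaks in the 10 windows merged into 108 sites, and for each gene the site called in most libraries was taken. The sequences of 6 of these sites are shown. Those of Cdx2, Eomes, Sox17 and Sox1 were called in all 3 preparations, that of Pax6 in asynchronous and mitotic cells, and that of Nkx2-2 in asynchronous cells alone. No site called on chromosomes alone, or in asynchronous cells and on chromosomes but not in mitotic cells, is among the 6. Each sequence is 151 bp of GRCm38 (mm10) around the median summit, forward strand, from the RefSeq assembly. Capitals mark the letters AGGGGGCGC, read on the reverse strand, in the Cdx2 site, the letters ATTTGCAT in the Nkx2-2 site and CpG dinucleotides in the others. The first is part of the motif of CTCF, the insulator factor, and the second is the octamer recognised by POU factors such as Oct4. Both motifs were chosen after the sequences were seen.
Cdx2, 13912 bp from the gene start, beyond the 3′ end, chr5:147293283-147293433: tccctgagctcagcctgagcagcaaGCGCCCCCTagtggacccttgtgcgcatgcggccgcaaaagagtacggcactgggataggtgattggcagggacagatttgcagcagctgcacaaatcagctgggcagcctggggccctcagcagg
Eomes, 10071 bp from the gene start, beyond the 3′ end, chr9:118488208-118488358: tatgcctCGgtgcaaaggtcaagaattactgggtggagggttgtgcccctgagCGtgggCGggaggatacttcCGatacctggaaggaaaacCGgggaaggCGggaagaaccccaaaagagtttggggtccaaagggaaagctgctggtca
Sox17, 4322 bp from the gene start, in a noncoding exon, chr1:4492957-4493107: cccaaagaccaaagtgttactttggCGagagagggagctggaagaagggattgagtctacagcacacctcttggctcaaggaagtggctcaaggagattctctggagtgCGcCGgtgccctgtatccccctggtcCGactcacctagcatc
Sox1, 5758 bp from the gene start, beyond the 3′ end, chr8:12400978-12401128: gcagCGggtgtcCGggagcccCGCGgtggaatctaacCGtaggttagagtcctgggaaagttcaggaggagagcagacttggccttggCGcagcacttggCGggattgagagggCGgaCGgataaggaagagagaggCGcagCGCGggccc
Pax6, 22512 bp from the gene start, in an intron, chr2:105691337-105691487: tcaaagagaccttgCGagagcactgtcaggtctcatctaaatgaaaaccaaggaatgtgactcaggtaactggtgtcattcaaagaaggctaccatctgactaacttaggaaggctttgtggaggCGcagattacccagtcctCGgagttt
Nkx2-2, 23267 bp from the gene start, beyond the 3′ end, chr2:147170901-147171051: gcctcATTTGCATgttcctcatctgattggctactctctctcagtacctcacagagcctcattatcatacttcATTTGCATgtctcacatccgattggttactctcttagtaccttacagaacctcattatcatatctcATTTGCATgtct
The Cdx2 window held 1 match of the CTCF letters and the Nkx2-2 window held 3 octamers. The bases around these octamers recur nearly unchanged along the Nkx2-2 window, so the 3 are not independent matches. CpG dinucleotides numbered 12 in the Sox1 window, 6 in the Eomes window, 5 in the Cdx2 window, 4 in the Sox17 window, 3 in the Pax6 window and 1 in the Nkx2-2 window. The Eomes window covers the 4 chromosome peaks of its site alone, since the asynchronous and mitotic summits joined to that site lie 125 to 163 bp farther from the gene start, outside the printed bases. In the Sox1 site the 2 asynchronous summits, 105 and 115 bp from the median summit, also lie outside. So do the mitotic summit of the Sox17 site (76 bp) and 1 of the 2 chromosome summits of the Cdx2 site (82 bp). These peaks still overlap the printed windows.

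More of the lineage genes had a peak in asynchronous and chromosome libraries than in mitotic ones. In asynchronous cells the WT pair had peaks at 4 and 9 of the 10 genes, and the Suv39h dn pair at 6 and 10. In mitotic cells the WT pair reached 2 and 4 genes, and the Suv39h dn pair 0 and 4. On chromosomes 7 and 10 genes had a peak in the WT pair, as did 8 and 9 in the Suv39h dn pair. The mean was 7.25 ± 2.75 (SD, n = 4) in asynchronous cells, 2.5 ± 1.91 (SD, n = 4) in mitotic cells and 8.5 ± 1.29 (SD, n = 4) on chromosomes. Over all protein-coding genes the share with a peak was 67.6% ± 13.8 (SD, n = 4), 31.6% ± 18.2 (SD, n = 4) and 71.1% ± 4.58 (SD, n = 4) in these preparations, which thus ranked alike for the lineage genes and for all genes.

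**Figure D1:**
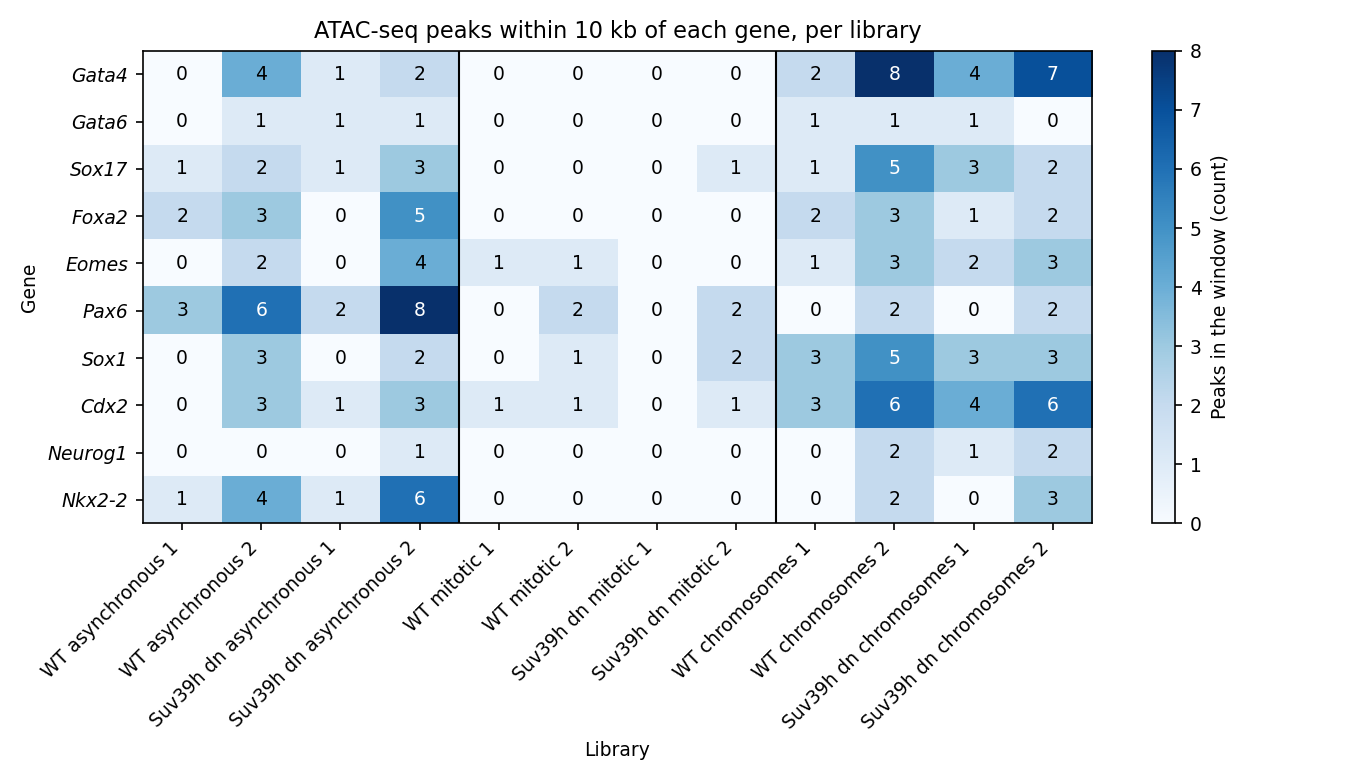
Number of peaks whose summit lies in the gene or within 10 kb of it, for the 10 lineage genes (rows) in the 12 libraries (columns, vertical lines separate asynchronous cells, mitotic cells and chromosomes). The Suv39h dn mitotic 1 column is 0 throughout, and the highest count, 8, occurs for Gata4 in WT chromosomes 2 and Pax6 in Suv39h dn asynchronous 2.

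All 10 genes had a peak in at least 1 of the 4 asynchronous libraries, where 85.2% of all protein-coding genes did, and all 10 in at least 1 chromosome library, where 87.5% did. In mitotic cells 5 genes did (Sox17, Eomes, Pax6, Sox1 and Cdx2), beside 59.3% of all genes, and Gata4, Gata6, Foxa2, Neurog1 and Nkx2-2 had no mitotic peak in any library. A peak in all 4 libraries was found for Sox17, Pax6 and Nkx2-2 in asynchronous cells, 3 genes beside 44.1% of all genes, and for Gata4, Sox17, Foxa2, Eomes, Sox1 and Cdx2 on chromosomes, 6 genes beside 49.2%. None of the 10 had one in all 4 mitotic libraries, beside 4.46% of all genes. The number of lineage genes rose with the share of all genes across libraries, as the plot of lineage genes against all genes shows.

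**Figure D2:**
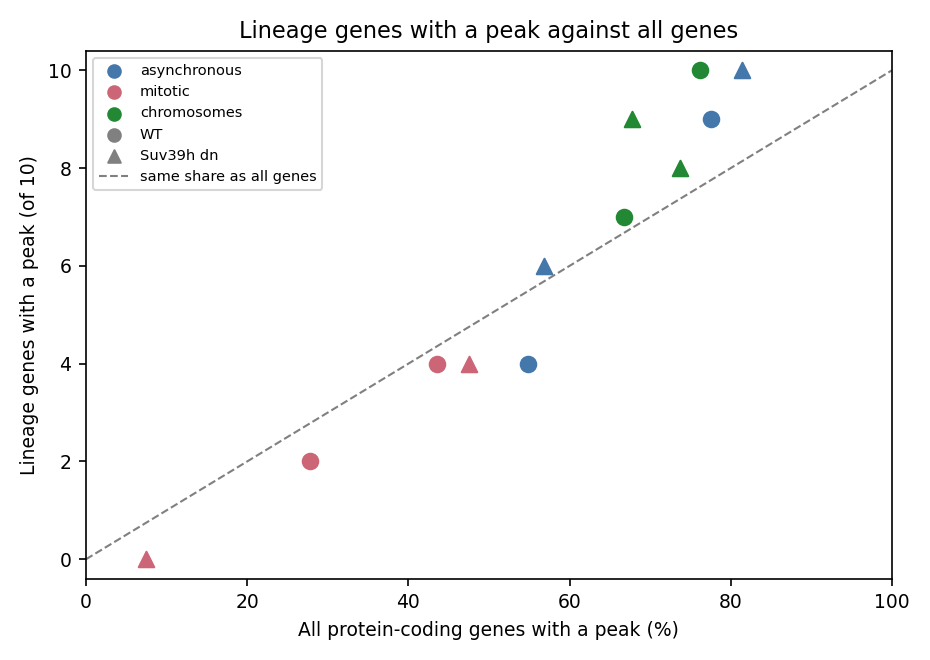
Number of the 10 lineage genes with a peak (vertical axis) against the percentage of all protein-coding genes with a peak (horizontal axis), 1 point for each of the 12 libraries, coloured by preparation, circles for WT and triangles for Suv39h dn. The dashed line marks the same share as all genes; the 4 chromosome libraries lie above it and the 4 mitotic libraries range from 0 to 4 genes.

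The counts were repeated with lists of equal length. When each list was reduced to its 1746 peaks of lowest p, no lineage gene had a peak in any asynchronous or mitotic library, and only Sox17 in WT chromosomes 1 and Cdx2 in Suv39h dn chromosomes 2 did, so that this length leaves almost nothing to compare. At 6495 peaks, without Suv39h dn mitotic 1, the asynchronous libraries and the 3 mitotic libraries reached 1 to 2 of the 10 genes and the chromosome libraries 1 to 5. At 13320 peaks, a length that leaves out WT mitotic 1 and Suv39h dn mitotic 1 and is the whole list of WT mitotic 2, the asynchronous libraries reached 1 to 3 of the 10 genes, both remaining mitotic libraries reached 4, and the chromosome libraries reached 2 to 5. At that length 36.6 to 41.6% of all genes had a peak in asynchronous libraries, 43.5 and 45.7% in the mitotic libraries and 31.7 to 34.9% in chromosome libraries.

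**Figure D3:**
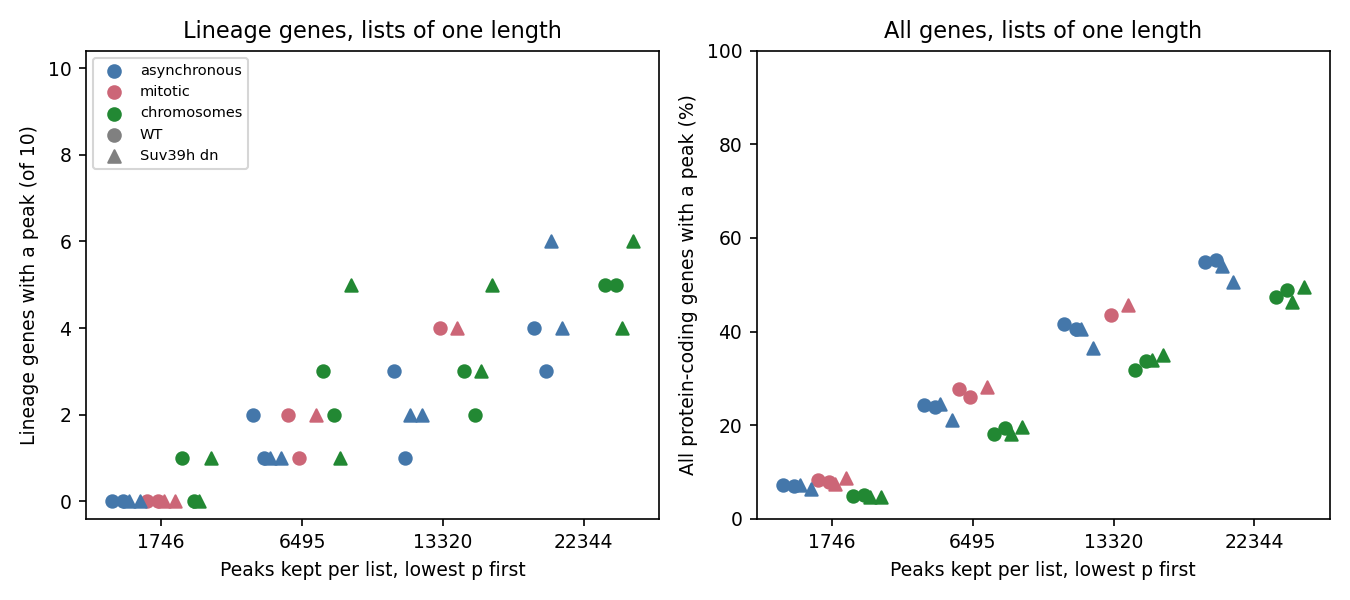
Lineage genes with a peak (left, of 10) and all protein-coding genes with a peak (right, in percent) when every list is reduced to the same number of peaks of lowest p (horizontal axis), 1 point per library, coloured by preparation, circles for WT and triangles for Suv39h dn. Lists shorter than a length are absent from it; at 13320 peaks the 2 mitotic libraries stand at 4 genes and the asynchronous ones at 1 to 3.

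Pax6 and Cdx2 were followed through the equal lengths, a choice made after their values were seen. Among the 13320 strongest peaks, Pax6 had a peak in all 4 asynchronous libraries, in both mitotic libraries and in 0 of 4 chromosome libraries. Cdx2 had one in 0 of 4 asynchronous libraries, in both mitotic libraries and in all 4 chromosome libraries. The Pax6 counts were also 4 of 4 asynchronous and 0 of 4 chromosome libraries at 6495 and at 22344 peaks. Those of Cdx2 changed with the length, to 0 of 4 asynchronous and 3 of 4 chromosome libraries at 6495 peaks and to 2 of 4 and 4 of 4 at 22344 peaks.

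For tests of single genes, the level of a gene was the log2 of its peaks per 10000 peaks of the list, plus a pseudocount of 1. The scale corrects for list length but lets 1 peak of a short list weigh more. Thus 3 Pax6 peaks in WT asynchronous 1 gave 1.34 per 10000 and 2 in WT mitotic 2 gave 1.5. Differences between preparations were tested by exact two-sided permutation of 4 against 4 libraries, which cannot give a p below 0.0286, and differences between genotypes by permuting genotype within preparations, which cannot give one below 0.00926. The permutation between preparations ignored the line, although each preparation holds libraries of both lines. Permuting preparations within each line could give no p under 0.05, so every call between preparations depends on leaving the line out. A gene was called at an unadjusted p under 0.05, since no gene of any comparison passed Benjamini-Hochberg adjustment over all genes tested (0 of 20396, 18757, 20390 and 19564).

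Between mitotic and asynchronous cells, Nkx2-2, a regulator of ventral neural and pancreatic identity, was the 1 lineage gene called lower, and none was called higher. Nkx2-2 had 1 and 4 peaks in WT asynchronous libraries and 1 and 6 in Suv39h dn asynchronous libraries, and none in the 4 mitotic libraries, so the groups did not overlap. Its level differed by -0.65 on the log2 scale (means 0.00 in mitotic and 0.65 in asynchronous libraries, exact permutation p = 0.0286, adjusted p = 0.335). Of all genes tested, 6.11% were called lower and 2.41% higher in this comparison (1146 and 452 genes). The counts were 59 and 52 genes with every list cut to 1746 peaks, which also leaves few peaks to compare. The split with full lists rested on single libraries, with 871 genes lower and 1598 higher without Suv39h dn mitotic 1, and 59 to 99 higher without any 1 asynchronous library. With lists of 6495 peaks and the 1746-peak library left out, the difference was -0.34. Nkx2-2 then had a peak in 1 of 4 asynchronous and 0 of 3 mitotic libraries. This fixes the exact permutation p at 1, so that it cannot test the call. With a q-value at or under 1e-05 or a flank of 2 kb the exact permutation p was 0.143.

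Between chromosomes and asynchronous cells, 1 of the 10 genes was called lower, Pax6, and 1 was called higher, Cdx2, which is near the shares over all genes given below. Pax6, required for eye and forebrain development, had 3 and 6 peaks in WT asynchronous and 2 and 8 in Suv39h dn asynchronous libraries, but 0 and 2 in the chromosome libraries of each genotype. The levels did not overlap and differed by -0.80 (means 0.23 and 1.03, exact permutation p = 0.0286, adjusted p = 0.155). Cdx2 had 0 and 3 peaks in WT asynchronous, 1 and 3 in Suv39h dn asynchronous, 3 and 6 in WT chromosome and 4 and 6 in Suv39h dn chromosome libraries. Its level was higher on chromosomes by 0.51 (means 0.90 and 0.39, exact permutation p = 0.0286, adjusted p = 0.155), again without overlap. Over all genes 7.83% were called higher and 10.6% lower, and without WT chromosomes 1 the balance turned to 1595 genes higher and 1468 lower. The Cdx2 call was lost when peaks with a q-value above 1e-05 were left out (exact permutation p = 0.429), and without WT asynchronous 1, WT chromosomes 2 or Suv39h dn chromosomes 2 (exact permutation p = 0.0571 each). Flanks of 2 and 50 kb also ended it, with an exact permutation p of 0.0571 and 0.171.

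Between chromosomes and mitotic cells, Gata4 and Foxa2 were called higher and none of the 10 lower. Beside them, 14.9% of all genes were called higher and 3.39% lower (2922 and 663 genes). The counts over all genes were 126 and 157 with every list cut to 1746 peaks, which also leaves few peaks to compare. They were 2039 and 2618 without Suv39h dn mitotic 1, and 155 to 176 were lower without any 1 chromosome library. Gata4 had 2 and 8 peaks on WT chromosomes and 4 and 7 on Suv39h dn chromosomes, and none in mitotic cells (difference 0.94, exact permutation p = 0.0286, adjusted p = 0.156). Foxa2, a pioneer factor of endoderm, had 2 and 3 peaks on WT chromosomes and 1 and 2 on Suv39h dn chromosomes, and none in mitotic cells (difference 0.45, exact permutation p = 0.0286, adjusted p = 0.156). All 4 mitotic lists are shorter than every chromosome list. With lists of 6495 peaks and without the 1746-peak library the differences were 0.84 and 0.34, with an exact permutation p of 0.429 for Gata4. Foxa2 then had a peak in 1 of 4 chromosome and 0 of 3 mitotic libraries. This fixes its exact permutation p at 1, so that it cannot test the call.

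The remaining genes were not called in any comparison. Sox1, an early neural regulator, had 0 and 3 peaks in WT asynchronous, 0 and 2 in Suv39h dn asynchronous, 3 and 5 in WT chromosome and 3 and 3 in Suv39h dn chromosome libraries, a difference of 0.48 that missed the threshold (exact permutation p = 0.0571). Sox17 had 1 to 3 peaks in asynchronous libraries and 1 to 5 in chromosome libraries, a difference of 0.07 (exact permutation p = 0.6). Gata6 and Neurog1 had the fewest peaks, 6 each over the 12 libraries, against 29 for Cdx2, 28 for Gata4 and 27 for Pax6. Per kb of window Cdx2 stood highest at 1.1 peaks over the 12 libraries (percentile 98.3 among all genes), followed by Sox1 at 0.886 and Foxa2 at 0.747, and Gata6 stood lowest at 0.112 (percentile 20.8). The median of the 10 genes was 0.583 peaks per kb, and that of all protein-coding genes was 0.29.

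Between the genotypes, 0 of the 10 genes was called by the exact permutation test in either direction, beside 0.284% of all genes called higher and 1.52% lower in Suv39h dn (58 and 310 genes), which became 16 and 13 genes with lists of equal length. Leaving out Suv39h dn mitotic 1 turned the balance to 261 higher and 167 lower, and without WT mitotic 1 it was 4 and 308. The largest differences were -0.28 for Eomes (exact permutation p = 0.306) and -0.19 for Foxa2 (p = 0.278, exact permutation), and the median over the 10 genes was 0.011 where that of all genes was -0.027. Eomes had 0 and 2 peaks in WT asynchronous, 0 and 4 in Suv39h dn asynchronous, 1 and 1 in WT mitotic, 0 and 0 in Suv39h dn mitotic, 1 and 3 in WT chromosome and 2 and 3 in Suv39h dn chromosome libraries. WT and Suv39h dn overlapped within asynchronous cells and within chromosomes for this gene. A p that misses the threshold does not show that the genotypes were alike.

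At the level of single sites, 37 of the 108 merged sites were called in at least 2 libraries (34.3%), beside 37% of all merged regions. Of the 37, 13 were called in asynchronous cells alone, 13 on chromosomes alone, 3 in both of these but not in mitotic cells, 2 in asynchronous and mitotic cells but not on chromosomes, and 6 in all 3 preparations. Of all merged regions called in at least 2 libraries, 29.6%, 33.8%, 13%, 15.3% and 7.75% had these patterns, beside 35.1%, 35.1%, 8.11%, 5.41% and 16.2% of the 37 sites. None of the 37 was called in mitotic cells alone, as were 0.0416% of those regions. The 6 sites called in all 3 preparations are 5.56% of the 108, beside 2.87% of all merged regions, and they belong to Cdx2, Eomes, Pax6, Sox17 and, with 2 sites, Sox1. Merging joins peaks that overlap in a chain, so that summits within a site can lie apart, as at Eomes and at the Sox1 site at 5758 bp.

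**Figure D4:**
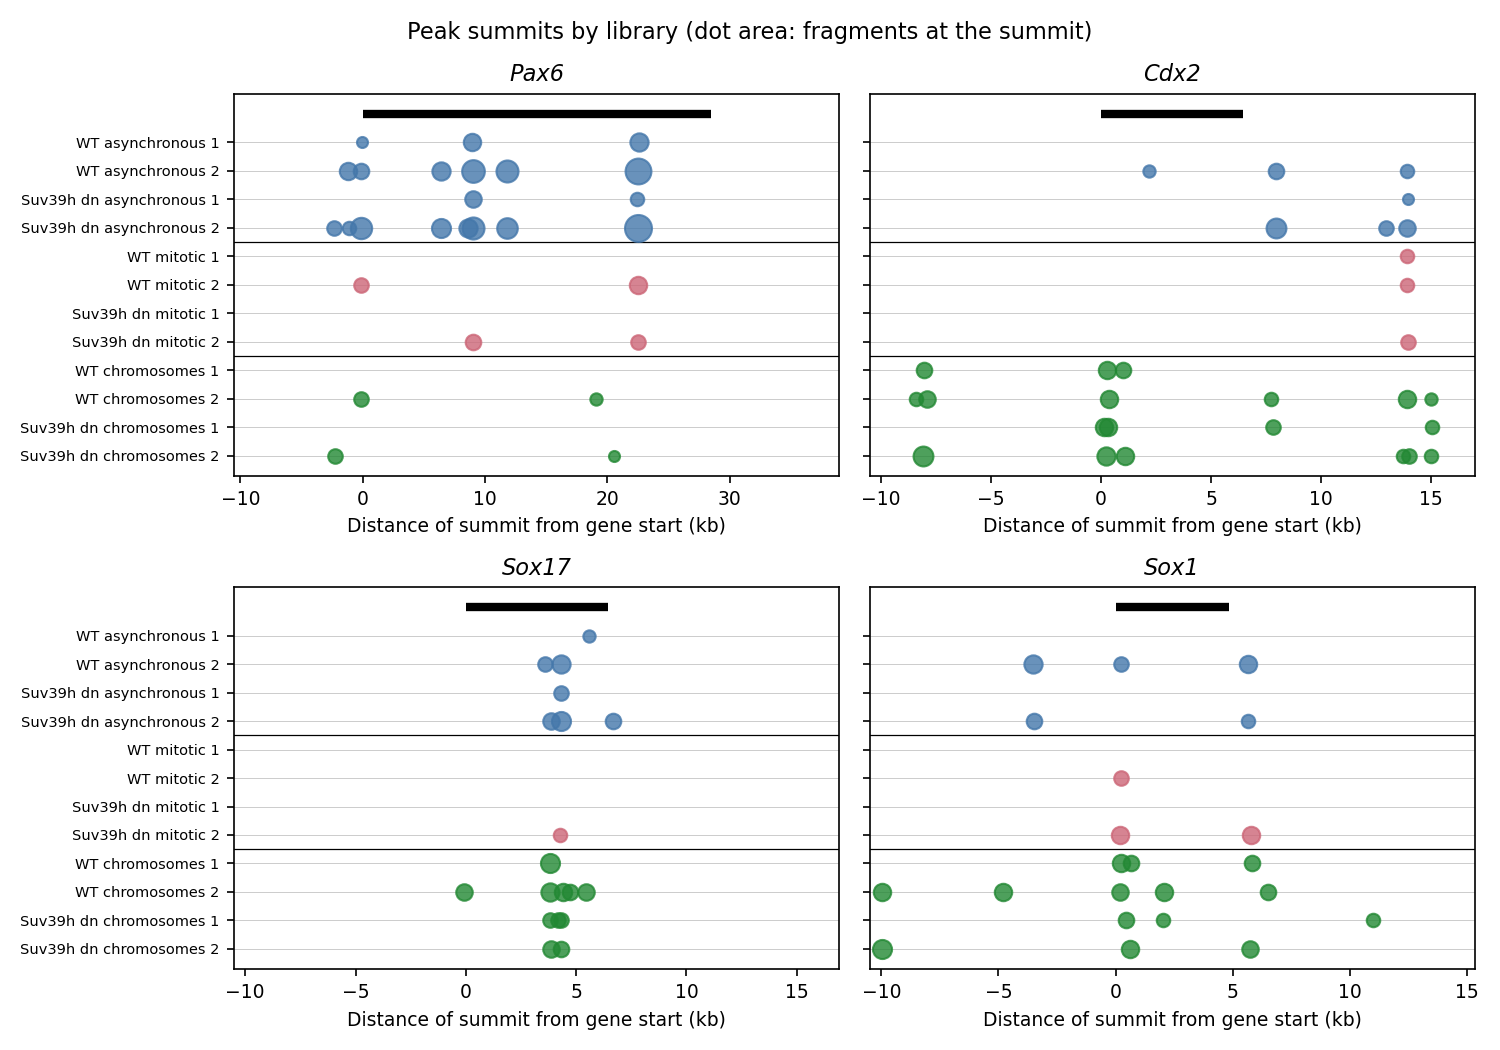
Summits of the peaks of Pax6, Cdx2, Sox17 and Sox1 by distance from the gene start in kb (horizontal axis, positive in the direction of transcription) in each of the 12 libraries (rows, blue asynchronous, red mitotic, green chromosomes). Dot area gives the fragments counted at each summit and the black bar is the gene; the Pax6 intronic summits at 9013 and 22512 bp recur in cells, and the Cdx2 summit at 267 bp recurs on chromosomes.

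Pax6 carried the highest peaks of the group. The intronic site 22512 bp from the gene start, shown above, had 11 and 22 fragments at the summit in WT asynchronous libraries and 6 and 24 in Suv39h dn asynchronous libraries, with folds over background of 8.66, 13.0, 5.26 and 12.2. In mitotic cells it was called in WT mitotic 2 with 10 fragments and in Suv39h dn mitotic 2 with 7. A further intronic site 9013 bp from the start had 10 and 17 fragments in WT asynchronous, 9 and 16 in Suv39h dn asynchronous and 8 in Suv39h dn mitotic 2. Neither site was called in any chromosome library. The 10 genes had 107 sites in asynchronous cells or on chromosomes. These 2 of the 107 were called in all 4 asynchronous and none of the chromosome libraries, beside 2.83% of all merged regions in those preparations, so the pattern was no more frequent here. The Pax6 site 152 bp upstream of the gene start was called in 5 libraries, 3 asynchronous, 1 mitotic and 1 chromosome library.

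Cdx2 had a site near its start that was called on chromosomes and a site beyond its 3′ end that was called in all 3 preparations. A site 267 bp from the gene start, in the 5′ UTR, was called in all 4 chromosome libraries with 10, 10, 10 and 11 fragments and in none of the 8 libraries from cells. Of the 107 sites of the 10 genes in asynchronous cells or on chromosomes, it was the 1 called in all 4 chromosome and 0 of 4 asynchronous libraries. Of all merged regions in those preparations 1.36% had this pattern, which leaves mitotic libraries aside, so it was no more frequent here. The site 13912 bp from the start, which holds the CTCF letters printed above, was called in 8 libraries, the most of any site in the group. It had 6, 4 and 9 fragments in WT asynchronous 2, Suv39h dn asynchronous 1 and Suv39h dn asynchronous 2. In the mitotic libraries it had 6 and 6 in WT and 7 in Suv39h dn mitotic 2, and on chromosomes it had 10 in WT chromosomes 2 and 7 in Suv39h dn chromosomes 2. It was thus the only Cdx2 site called in mitotic cells.

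Sox17 and Eomes, regulators of endoderm and mesendoderm, each had 1 site called in 7 libraries. The Sox17 site 4322 bp from the gene start, whose nearest annotated transcript start lies 572 bp away, had 6 to 12 fragments in 3 asynchronous libraries, 1 mitotic library and 3 chromosome libraries. A neighbouring Sox17 site at 3810 bp, 60 bp from a transcript start, was called in all 4 chromosome libraries with 12, 11, 7 and 9 fragments, and in 1 asynchronous library with 9. The Eomes site at 10071 bp was called in all 4 chromosome libraries with 6, 10, 6 and 7 fragments, in the second asynchronous library of each genotype with 9 and 11, and in WT mitotic 1 with 6. The summits in cells lay 125 to 163 bp from the median summit of the site and those on chromosomes at it or up to 63 bp on its other side, so that these are separate summits counted as 1 site. It lies within 1 kb of the start of the antisense gene Gm33460, so that the Eomes and Gm33460 assignments cannot be told apart.

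Sox1 had a site at 211 bp, in its 5′ UTR, called in 1 asynchronous library, 2 mitotic libraries and both WT chromosome libraries, and the site at 5758 bp shown above, called in 2 asynchronous libraries, 1 mitotic library and 2 chromosome libraries. Nkx2-2 had sites at 6849 and 23267 bp that were each called in 3 of 4 asynchronous libraries and in no other library. The 23267 bp site had 7 fragments in WT asynchronous 2, 4 in Suv39h dn asynchronous 1 and 13 in Suv39h dn asynchronous 2. Foxa2 had an intronic site at 565 bp with 7, 11 and 16 fragments in 3 asynchronous libraries and 6 and 11 in 2 chromosome libraries. Gata4 differed from these genes, with 28 peaks spread over 24 sites, none called in more than 2 libraries.

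Sites called in both libraries of 1 genotype and in neither library of the other were rare. In asynchronous cells there was 1 of 46 sites with Suv39h dn alone, in the 5′ UTR of Gata6, and 0 with WT alone, where 2.46% and 0.753% of all regions in asynchronous cells had these patterns. On chromosomes there were 2 of 70 with WT alone, at the Foxa2 coding exon (2184 bp) and the Sox1 5′ UTR (211 bp), and 0 with Suv39h dn alone, where 2.73% and 2.07% of all regions did. In mitotic cells 0 of 9 sites had either pattern, where 2.92% of all regions in mitotic cells had WT alone and 0.625% Suv39h dn alone.

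The peaks of the lineage genes had a median of 8 fragments at the summit in asynchronous cells (range 4 to 24, 77 peaks), 7 in mitotic cells (4 to 10, 13 peaks) and 7 on chromosomes (4 to 13, 99 peaks), where the medians over all peaks were 7, 7 and 6. A q-value at or under 1e-05 was reached by 44.2%, 23.1% and 11.1% of them, where 51.1%, 33.9% and 12.6% of all peaks of these preparations did. Within their own list, the peaks of the lineage genes stood at a median percentile of 39.5 in asynchronous cells, 46.5 in mitotic cells and 52.8 on chromosomes. The share within 1 kb of an annotated transcript start was 39% in asynchronous cells, 38.5% in mitotic cells and 42.4% on chromosomes, where it was 21.2 to 32.3%, 40.9 to 52.1% and 22.4 to 30.5% of all peaks per library.

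Sequence was read over 100 bp on each side of each summit. Peaks of the lineage genes had a median GC content of 57.2% in asynchronous cells, 61.7% in mitotic cells and 59.7% on chromosomes, where all peaks had 52.2%, 55.2% and 57.2%. The median ratio of observed to expected CpG was 0.511, 0.483 and 0.591 for the lineage genes and 0.287, 0.45 and 0.275 for all peaks. The ratio was higher for the lineage genes in every library with such peaks except WT mitotic 1, where it was lower and rests on 2 peaks. It was 0.725, 0.605, 0.553 and 0.557 in the 4 chromosome libraries. In the asynchronous libraries it was 0.456 and 0.518 for WT and 0.309 and 0.543 for Suv39h dn. By gene, Neurog1, Sox1 and Sox17 had the highest median ratios (0.864, 0.73 and 0.688) and Pax6 the lowest (0.31). Peaks are not replicates of a condition, and these values are descriptions.

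**Figure D5:**
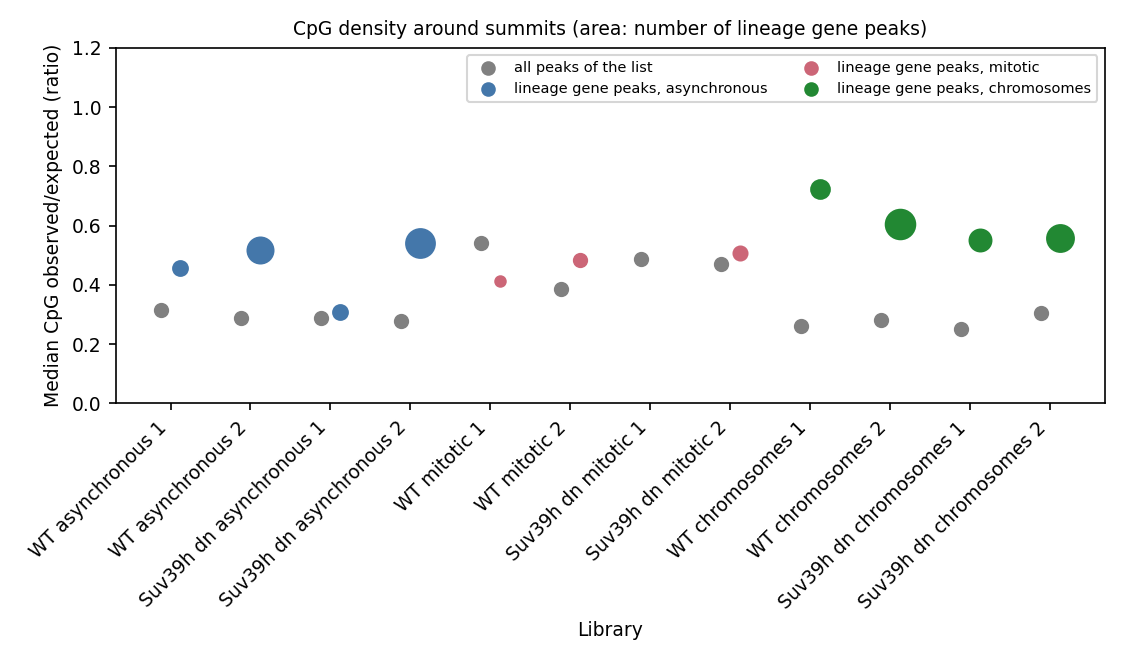
Median ratio of observed to expected CpG (vertical axis) within 100 bp of the summits, for all peaks of each list (grey) and for the peaks of the 10 lineage genes (coloured by preparation, dot area by number of peaks). Chromosome libraries show lineage gene medians of 0.553 to 0.725 beside 0.252 to 0.306 for all peaks, and asynchronous libraries 0.309 to 0.543 beside 0.278 to 0.316. Suv39h dn mitotic 1 has no lineage gene peak.

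Motifs were searched as letters on both strands of the same windows, and matches of different motifs could share bases. The GC box (GGGCGG) was found in 23.4%, 23.1% and 26.3% of lineage gene peaks in asynchronous cells, mitotic cells and chromosomes, and in 21.1%, 32.6% and 14.9% of all peaks. The CCAAT box was found in 35.1%, 38.5% and 17.2%, against 29.8%, 35.5% and 24.3% of all peaks, and TATAAA in 3 of 77, 0 of 13 and 0 of 99 peaks, against 6.11%, 4.76% and 2.89%. The CTCF letters were found in 6 of 77, 5 of 13 and 7 of 99 peaks, against 1.5%, 1.74% and 0.354% of all peaks. In mitotic cells 3 of these peaks were at the Cdx2 site at 13912 bp and 2 at Sox1. In asynchronous cells 3 were at this Cdx2 site, 2 upstream of Foxa2 and 1 at Neurog1. On chromosomes 5 were beyond the 3′ end of Cdx2 and 2 at Sox1. The octamer was found in 5 of 77, 2 of 13 and 2 of 99 peaks, against 3.12%, 2.27% and 0.294%, at Nkx2-2 (3 peaks of the printed site), Neurog1 and Sox1. These matches are repeated calls of few sites. The CTCF letters and the octamer were chosen after sequences of these sites were seen, so that their higher shares here are no test.

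A further 37 lineage regulators were examined beside the 10 genes. Of these 37, 12 to 31 had a peak in asynchronous libraries, 0 to 12 in mitotic libraries and 25 to 37 in chromosome libraries. Between the genotypes 0 of 37 were called by the exact permutation test. Between mitotic and asynchronous cells 1 of 35 tested was lower, Msx2, a homeobox factor, by -0.58 (exact permutation p = 0.0286, adjusted p = 0.335). Between chromosomes and asynchronous cells 6 were higher, led by Pax2 (0.90), Gata5 (0.53) and Isl1 (0.49), and 2 were lower, Elf5 (-0.49) and Pax9 (-0.14), each with an exact permutation p of 0.0286 and an adjusted p of 0.155. Between chromosomes and mitotic cells 8 were higher, led by Sim1 (0.78), Neurog2 (0.63) and Hhex (0.54), and 0 were lower. The median difference of the 37 genes was -0.08 between mitotic and asynchronous cells, beside -0.25 for the 10 genes and -0.092 for all genes. It was 0.14 between chromosomes and asynchronous cells and 0.29 between chromosomes and mitotic cells, beside 0.16 and 0.24 for the 10 genes and -0.012 and 0.073 for all genes.

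The protein-coding genes whose level over the 12 libraries ran most like the mean of the 10 genes were Acvr1b (Pearson r = 0.90), Cnnm1 (0.85), Zfp423 (0.84), Mta1 (0.83) and Pcsk6 (0.83). These are the highest of all genes and share with the 10 genes the libraries, their depth and the length of their lists.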

How the data were processed

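ATAC-seq peak lists of 12 libraries were used, grouped by genotype and preparation as the labels give them. Per the labels and the study's methods, the authors trimmed reads (Trim Galore 0.4.4), aligned them to mm10 (Bowtie2 2.2.9), merged runs, removed duplicate and mitochondrial reads, shifted the ends, kept fragments under 100 bp and called peaks in each library without pooling (MACS2). Blacklisted regions were then removed; this step was not checked in the deposited lists. Per peak, the deposited files give the fold over background (a ratio), the −log10 of the p-value and of the q-value, and the summit. The lowest −log10 q was 1.30 to 1.32, so a site just below the threshold is not listed.

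Windows came from GENCODE release M21, and sequences from GRCm38. Fragments at a summit were recovered as the whole number that, with the deposited fold, best gave the deposited −log10 p. For peaks with a −log10 p under 60, 100% had such a number within a tolerance of 0.01. Stronger peaks were not recovered. Tests were exact permutations over libraries on log2(peaks per 10000 + 1), over every protein-coding gene with a peak in a library of the comparison. Functions were tested on simulated data. Python 3.11.15, numpy 2.4.6 and pandas 2.3.3 were used. Alternatives were a q-value of 1e-05, equal list lengths, overlap in place of the summit, flanks of 2 and 50 kb, peaks at other start sites left out, another pseudocount, a filter, a replicate block and each library left out.

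The genes and lists were chosen with earlier results of these data known. Named were all 10 genes, the site of each called in most libraries, up to 3 other lineage regulators per direction and the 5 genes of most similar level. Other sites were named after their values were seen. Merged regions join overlapping peaks of all libraries. Depth is not part of the lists, beyond the background recovered from them, and limits every comparison.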

Additional observations from a re-analysis of the deposited data

Results flagged for a closer look

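Eomes moved in opposite directions between mitotic cells and chromosomes in the 2 genotypes. In WT its level was 1.34 and 0.81 in mitotic libraries and 0.28 and 0.53 on chromosomes, so that every chromosome library was lower. In Suv39h dn it was 0.00 and 0.00 in mitotic libraries and 0.42 and 0.74 on chromosomes, so that every chromosome library was higher. The change differed by 1.25 on the log2 scale between the genotypes, and this difference was not tested. The WT mitotic values rest on 1 peak in each library, where WT chromosome libraries had 1 and 3, so the unscaled count did not fall in WT. The WT mitotic 2 peak, 10896 bp from the gene start, had 4 fragments and stood at percentile 0.968 of its list. It lies at another site than the WT mitotic 1 peak. The Suv39h dn mitotic 1 list holds 1746 peaks. Groups of 2 libraries allow no search for outlying libraries.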

How the results depend on the processing

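With lists of equal length the share of tested genes called fell from 1.8 to 0.147% between the genotypes (368 to 29 genes), from 8.52 to 2.1% between mitotic and asynchronous cells (1598 to 111), from 18.4 to 12.6% between chromosomes and asynchronous cells (3756 to 2366) and from 18.3 to 4.84% between chromosomes and mitotic cells (3585 to 283). The mean number of lineage genes with a peak then differed by 0 between mitotic and asynchronous cells in place of -4.75 and by 0.5 between chromosomes and mitotic cells in place of 6. The length in both comparisons was 1746 peaks, where no asynchronous or mitotic library had a peak at any of the 10 genes. This fixes the first of these differences at 0. Leaving out also the shortest list (Suv39h dn mitotic 1), an alternative chosen after seeing the data, gave 0.742% (147 genes) between the genotypes, 3.57% (411) between mitotic and asynchronous cells and 10.7% (1425) between chromosomes and mitotic cells, and differences of 0.417 and 1.08 lineage genes in the last 2. With q-values at or under 1e-05 the shares called were 0.294, 5.2, 10.9 and 3.59% (52, 869, 1925 and 438 genes) in the order given above, and the lineage genes differed by -2.25 between chromosomes and asynchronous cells in place of 1.25 and by 1.75 between chromosomes and mitotic cells. A flank of 50 kb gave 3.06% (667 genes) between the genotypes and 11.4% (2438) between mitotic and asynchronous cells, and turned the Gata4 difference between chromosomes and mitotic cells to -0.35. Shorter lists follow from the construction of the first of these settings, and for the others the cause was not tested.

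The replicate block gave 1.6% (326 genes) between the genotypes and 0 called genes in the other 3 comparisons, where its smallest possible p is 0.125. The deviations of replicate 1 from the group mean correlated at -0.04 to 0.23 between groups, the highest being 0.23 between the asynchronous groups and 0.11 between the chromosome groups of the 2 genotypes. Since most pairs of groups were lower and no label says that a number marks a shared day, the numbers were not taken to pair the libraries. Leaving out 1 library at a time gave shares of 1.06% (without WT mitotic 2) to 2.57% (without Suv39h dn mitotic 2) between the genotypes, 5.86% (without WT asynchronous 2) to 13.2% (without Suv39h dn mitotic 1) between mitotic and asynchronous cells, 14.1 to 16.6% between chromosomes and asynchronous cells and 15.7 to 23.8% between chromosomes and mitotic cells, and 5.92% (1054 genes) between mitotic and asynchronous cells without Suv39h dn asynchronous 2. Of 711 recomputed differences of single lineage genes, 607 stayed within their spread or on their side of the threshold, 28 lost and 19 gained a call, 56 moved by more than their spread and 1 reversed, and the sign changed in 56. Gata4 and Foxa2 lost their calls between chromosomes and mitotic cells when any 1 mitotic library was left out (exact permutation p of 0.0571), with differences still at 0.94 and 0.45, since all 4 mitotic values are 0. The Pax6 call between chromosomes and asynchronous cells was lost only under the replicate block. No gene passed adjustment over all genes under any setting.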

Other observations

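The windows of the 10 genes also hold other genes. Neil2 lies in the Gata4 window, Elp4 in the Pax6 window and Urad in the Cdx2 window, and noncoding genes lie in several others. Of the sites called in at least 2 libraries, the Cdx2 site 8053 bp upstream of the gene start lies within Urad, a gene of uric acid breakdown, and was called in 2 chromosome libraries, where its mean percentile within the list was 94.9, the highest among these sites. The Pax6 sites 152 and 1178 bp upstream of the gene start lie within the antisense gene Pax6os1. The Sox1 sites at 211, 623, 2047 and 5758 bp lie within Sox1ot, which overlaps Sox1 in the same direction. The Nkx2-2 site at 6849 bp lies within Nkx2-2os and within 1 kb of the start of 6430503K07Rik. Peaks carry no strand, so that these sites cannot be assigned to 1 of the overlapping genes.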
